A study of Homo sapiens with 96 samples.

Results

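The genes described here encode the replication-dependent histones, the H1 linker and the H2A, H2B, H3 and H4 core proteins that package newly made DNA. They were taken from the deposited table of 60675 genes as the symbols starting with HIST1H, HIST2H, HIST3H or HIST4H that are not named as pseudogenes, with a total of at least 100 expected counts over all 96 libraries. Of 75 such symbols, 49 reached that total and 26 did not. The lowest gene kept, HIST1H2AJ, had a total of 118 and the highest left out, HIST1H4K, had 89.9. The 49 genes comprise 4 for H1, 12 for H2A, 16 for H2B, 9 for H3 and 8 for H4. By name, 33 lie in the HIST1 cluster on chromosome 6, 12 in the HIST2 cluster and 3 in the HIST3 cluster on chromosome 1, and 1 is HIST4H4 on chromosome 12. GENCODE release 29 annotates 3 of them, HIST2H2BC, HIST2H2BD and HIST3H2BA, as pseudogenes although their symbols do not say so.

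Replication-dependent histone mRNAs are made in S phase and, unlike other messenger RNAs, mostly end in a conserved stem-loop instead of a poly(A) tail. The stem-loop is bound by SLBP, and the U7 small nuclear RNA directs the cut behind it. Several of these genes also have a second, polyadenylated form whose 3′ end lies past the stem-loop. Libraries that select polyadenylated RNA see mainly that form, so how a library was made bears on every value below.

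The cells were A549, an established human lung adenocarcinoma line. In the first batch they received vehicle, or a water or an ethanol extract of Paeoniae Radix (peony root) at 500, 100 or 20 µg/mL. In the second batch they received vehicle, or 1 of the 8 ingredients albiflorin, benzoic acid, catechin, gallic acid, hederagenin, oleanolic acid, paeoniflorin and paeonol at 10, 2 or 0.4 µM. Each of the 32 groups had 3 libraries, and each treatment was compared with the vehicle of its own batch. Extracts, related ingredients, ingredients of 1 label code and the vehicles of both batches were also compared directly. The labels used here give neither the exposure time nor the vehicle solvent, nor whether replicates came from separate cultures. The p-values below rest on the spread among the 3 libraries of a group, which may be technical. That spread was pooled over all groups fitted together, so libraries outside the compared groups also bear on each p-value.

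To show what the reads of these genes can come from, their annotated transcript models (GENCODE release 29) were searched on the sense strand for the histone stem-loop, a stem that opens with GG and closes with CC around a loop rich in T. It was found in a model of 31 of the 49 genes and in 0.126% of all 57133 genes with models (72 genes). In 24 of the 31, a model ran on for at least 100 nt past the stem-loop. Of the 18 without it, 14 have models that hold coding sequence only, HIST1H1C and HIST1H2BK among them, so the model does not reach the place where it would lie. The genes below are those on which the results turn. Stem and loop are in capitals, with 5 bases on either side.
HIST1H4H: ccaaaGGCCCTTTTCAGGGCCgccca
HIST2H4A: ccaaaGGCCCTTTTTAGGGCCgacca
HIST1H3H: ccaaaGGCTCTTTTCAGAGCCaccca
HIST1H3E: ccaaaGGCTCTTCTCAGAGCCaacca
HIST1H2AC: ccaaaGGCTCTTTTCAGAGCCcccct
HIST1H2BN: acaacGGCTCTTTTCAGAGCCaccta
HIST2H2BE: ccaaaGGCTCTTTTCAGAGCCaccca
HIST3H2A: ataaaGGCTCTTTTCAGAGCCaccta
HIST2H4B carries the same letters as HIST2H4A. The most frequent of 6 forms, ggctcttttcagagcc, was found in 16 genes. The form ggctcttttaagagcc was found in 4 and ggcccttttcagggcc, that of HIST1H4H, in 4. The forms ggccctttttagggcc, that of HIST2H4A, and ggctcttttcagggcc were found in 3 each, and that of HIST1H3E, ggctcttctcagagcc, in 1. Past the stem-loop the longest model continues for 1655 nt in HIST1H4H, 1729 nt in HIST2H2BE, 769 nt in HIST1H3H and 390 nt in HIST3H2A.

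Upstream sequence was available from RefSeq (GRCh38.p14) for 40 of the 49 genes. The 250 bases before the start were searched on both strands for the CCAAT box, for the TATA box in its form TATAAA, and for the octamer ATTTGCAT, the site of POU2F1 in H2B promoters. Matches of different motifs were counted even where they overlapped. CCAAT was found before 34 of the 40 genes (85%) and before 32.01% of 35116 promoters in the table. All matched H1, H2A, H2B and H3 genes held it, but only 1 of 7 H4 genes did. TATAAA was found before 24 genes (60%, against 10.7% of all promoters). The octamer was found before 12 genes (30%, against 1.63%), 6 of them for H2A and 6 for H2B. Not all 40 stretches are separate. Those of H2A and H2B neighbours such as HIST1H2AG and HIST1H2BJ overlap, and those of copies such as HIST2H4A and HIST2H4B repeat each other. A single match can therefore count for more than 1 gene. The last 150 bases before the start are shown for the H4 genes that moved in opposite directions and for the H1 gene that rose, with CCAAT in capitals where it occurs.
HIST1H4H, chr6:26285535-26285684, minus strand: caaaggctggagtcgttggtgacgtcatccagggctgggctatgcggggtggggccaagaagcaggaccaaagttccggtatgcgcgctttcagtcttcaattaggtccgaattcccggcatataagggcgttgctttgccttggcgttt
HIST2H4A, chr1:149832507-149832656, plus strand: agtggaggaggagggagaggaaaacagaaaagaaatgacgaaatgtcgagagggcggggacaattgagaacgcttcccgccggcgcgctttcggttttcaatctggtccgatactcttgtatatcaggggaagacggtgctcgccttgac
HIST1H1C, chr6:26056471-26056620, minus strand: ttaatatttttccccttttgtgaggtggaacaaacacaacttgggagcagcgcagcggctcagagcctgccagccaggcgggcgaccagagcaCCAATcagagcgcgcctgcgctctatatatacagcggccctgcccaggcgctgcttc
The same 150 letters stand before HIST2H4B on the minus strand, at chr1:149861160-149861309. The 3 motifs are absent from the 250 bases before HIST1H4H, HIST2H4A and HIST2H4B. A match or its absence describes these letters and was not tied to the expression values.

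Together the 49 genes made up a small part of each library. Libraries held 17.9 to 28.1 M expected counts (first batch) or 15.7 to 35.6 M (second batch). Summed over the 49 genes, the level in the first batch's 3 vehicle libraries was 80.67, 84.01 and 82.72 CPM (counts per M, scaled to the library's total by trimmed-mean normalization). The 10 genes with the largest totals held 69.4% of all their counts, and 42 of the 49 averaged under 100 counts per library. The number of counts therefore limits precision for most of them, and 22 averaged under 10. Levels of different genes are not ranked here, because CPM is not scaled to transcript length.

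Libraries of 2 kinds in the second batch stood apart before any comparison was made. In the first kind, 4 libraries had COL1A2, a fibroblast collagen chain, at 485 to 605 CPM, where the other 71 libraries had at most 0.84 CPM. They were catechin at 10 µM replicate 2, catechin at 2 µM replicate 2, gallic acid at 2 µM replicate 1 and gallic acid at 0.4 µM replicate 1. Of 8 fibroblast markers, COL1A1, COL3A1, DCN and LUM also lay above all 71 other libraries in all 4, beside COL1A2, by which the 4 were set apart. COL5A1 did not. The summed level of the 8, COL1A2 included, was 1065 to 1315 CPM against 126 to 453, while POSTN and PDGFRB were at or near 0 everywhere. The 4 libraries also held far more of the untailed RNAs RN7SK, a regulator of transcription elongation (1060 to 1302 against 0.11 to 2.67 CPM), and RN7SL1, the RNA of the signal recognition particle (1001 to 1214 against 2.49 to 35.8 CPM). In the second kind, 18 libraries had under 5% of their counts in mitochondrially encoded genes, 3 of them among the 4 above. The 8 listed airway epithelial and A549 markers were KRT8, KRT18, KRT19, EPCAM, CDH1, AKR1B10, AKR1C1 and ALDH3A1. Their summed level was 4736 to 7148 CPM in the first batch and 9414 to 18611 CPM in the second. The sum does not say how high each marker stood.

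Histone transcripts were higher in the first kind. Their summed level was 203 to 238 CPM in the 4 libraries and 53.1 to 93.8 CPM in the other 71, with medians of 211 and 77.7 CPM. The ranges did not overlap. Of the 49 genes, 14 lay above all 71 other libraries in all 4 (28.6%), where 3.27% of 21566 genes did so, and 0 lay below (0.0139% of genes). Both shares are over genes with a total of at least 100 counts, and that total included the 4 libraries. A gene could therefore be kept through its level in these 4. Among the 14, HIST3H2BA had a median of 0 CPM in the libraries of neither kind, and HIST1H2AL one of 0.0145 CPM. By class the 14 were 1 of 4 for H1, 3 of 12 for H2A, 7 of 16 for H2B, 2 of 9 for H3 and 1 of 8 for H4. Since the 4 libraries were not labelled as a group, no test was made.

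**Figure D1:**
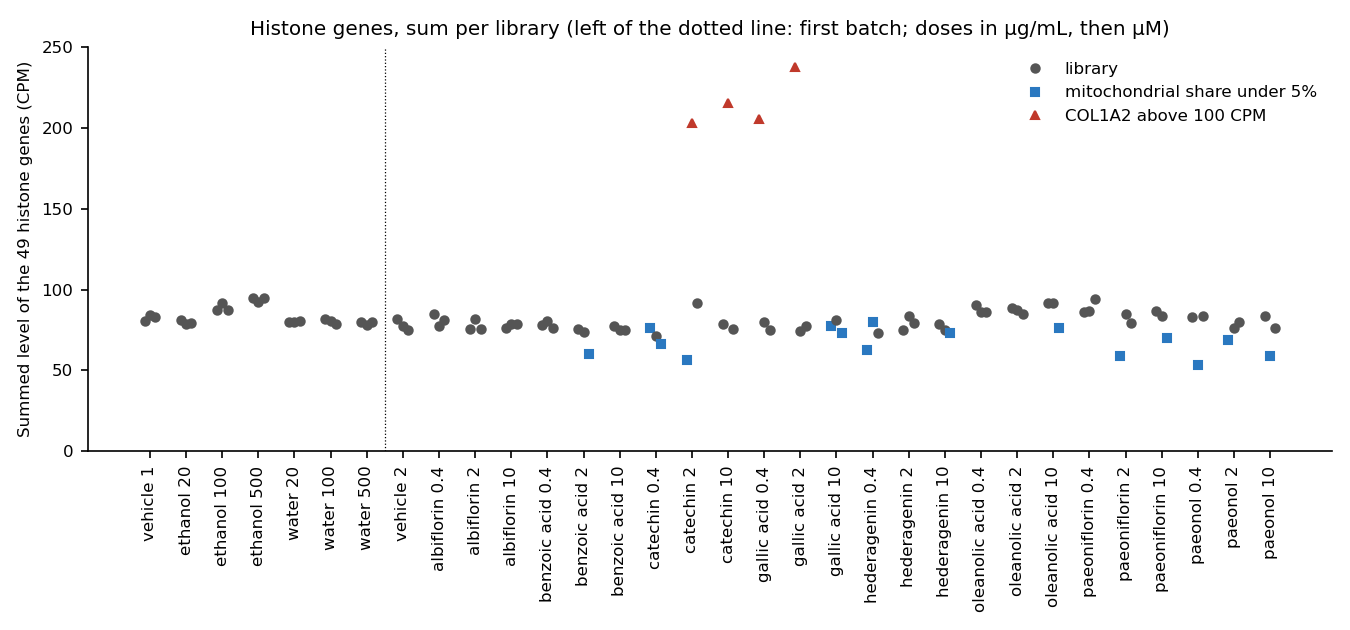
Summed level of the 49 histone genes (vertical axis, CPM) in each of the 96 libraries, by group (horizontal axis). Triangles mark the 4 libraries with COL1A2 above 100 CPM, which lie between 203 and 238 CPM; squares mark the 15 other libraries with a mitochondrial share under 5%, and the remaining libraries lie between 71.02 and 94.78 CPM.

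HIST3H2A, an H2A gene beside HIST3H2BB at chr1:228456979-228457873, stood at 46.45, 53.44, 49.69 and 58.21 CPM in the 4 libraries. In the other 71 it ranged from 1.33 to 3.69 CPM, with a median of 2.31, a ratio of medians of 22.4. HIST1H2BN was at 17.1 to 24.3 CPM against 0.39 to 1.85. HIST2H2BF, also for H2B, was at 15.6 to 22.7 CPM against 0.25 to 1.62. These 3 genes show no overlap between the 4 libraries and the rest. The identical copies HIST2H3A and HIST2H3C, both for H3, had 9.26 to 11.5 CPM each against 0.70 to 1.47. HIST1H4I, for H4, had 5.89 to 8.57 against 0.14 to 0.86. HIST1H1E, for the linker histone H1.4, had 0.80 to 2.48 against 0.04 to 0.42. The other 7 of the 14 were HIST2H2BE, HIST1H2BE, HIST1H2BL, HIST1H2BO, HIST3H2BA, HIST1H2AL and HIST1H2AH, and HIST2H2BE had the lowest ratio of medians, 1.79.

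Several abundant histone transcripts did not take part. HIST1H2AC had 9.40 to 10.65 CPM in the 4 libraries, within the 6.44 to 15.8 CPM of the other 71. HIST1H2BK (10.6 to 12.5 CPM), HIST1H1C (6.23 to 8.52 CPM) and the summed pair HIST2H4A and HIST2H4B (10.1 to 11.8 CPM) also lay within the range of the rest. Only 2 of the 10 genes with the largest totals, HIST2H2BE and HIST3H2A, were among the 14. The annotated stem-loop stood in a model of 10 of the 14 and of 21 of the other 35. A model ran at least 100 nt past it in 8 of 14 and 16 of 35. Models of coding sequence only, which cannot show it, were those of 3 of the 14 and 11 of the other 35. The models therefore cannot tell whether the stem-loop separates these genes. Of the lists compared in the same way, 5 of 23 untailed RNAs lay above all 71 (RN7SK, RN7SL1, RPPH1, RNU4-2 and RNY1), and 1 of 16 replication-independent histones did (H3F3C). Fibroblast markers, untailed RNAs and histone transcripts moved together in these libraries, and the part of each in the others was not tested.

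**Figure D2:**
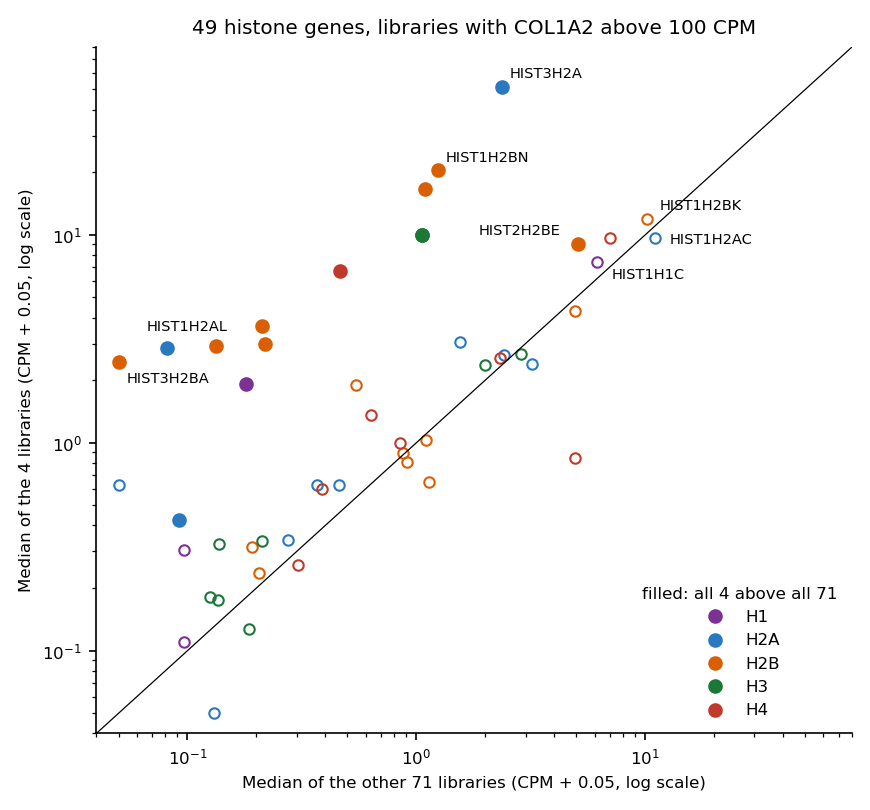
Median level of each of the 49 histone genes in the 4 libraries with COL1A2 above 100 CPM (vertical axis) against its median in the other 71 libraries of the second batch (horizontal axis), both as CPM + 0.05 on log scales, with the line of equality. Filled points are the 14 genes for which all 4 libraries lay above all 71; HIST3H2A is at 51.6 against 2.31 CPM, while HIST1H2AC, HIST1H2BK and HIST1H1C lie near the line.

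Levels of some histone genes also ran with the mitochondrial share. In the 15 libraries under 5% that did not have high COL1A2, the summed level was 53.1 to 79.6 CPM (median 68.7), against 71.02 to 93.82 CPM (median 79.4) in the 56 libraries of neither kind. HIST1H2BK, an H2B gene, was at 2.81 to 8.35 CPM (median 5.81) in the 15 and at 8.17 to 15.4 CPM (median 10.4) in the 56. HIST2H2BE was at 1.52 to 3.93 CPM (median 2.74) against 3.07 to 6.67 (median 5.35). The ranges of HIST1H2BK met only at their ends, and those of HIST2H2BE overlapped between 3.07 and 3.93 CPM. The medians of HIST1H1C (5.83 and 6.10 CPM), of the HIST2H4A and HIST2H4B pair (10.75 and 11.04 CPM) and of HIST1H4H (2.27 and 2.26 CPM) were close. HIST1H4C had the higher median in the 15 libraries, 0.90 against 0.52 CPM. Libraries of 1 kind or the other fell in 15 of the 25 groups of the second batch, none of them the vehicle.

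**Figure D3:**
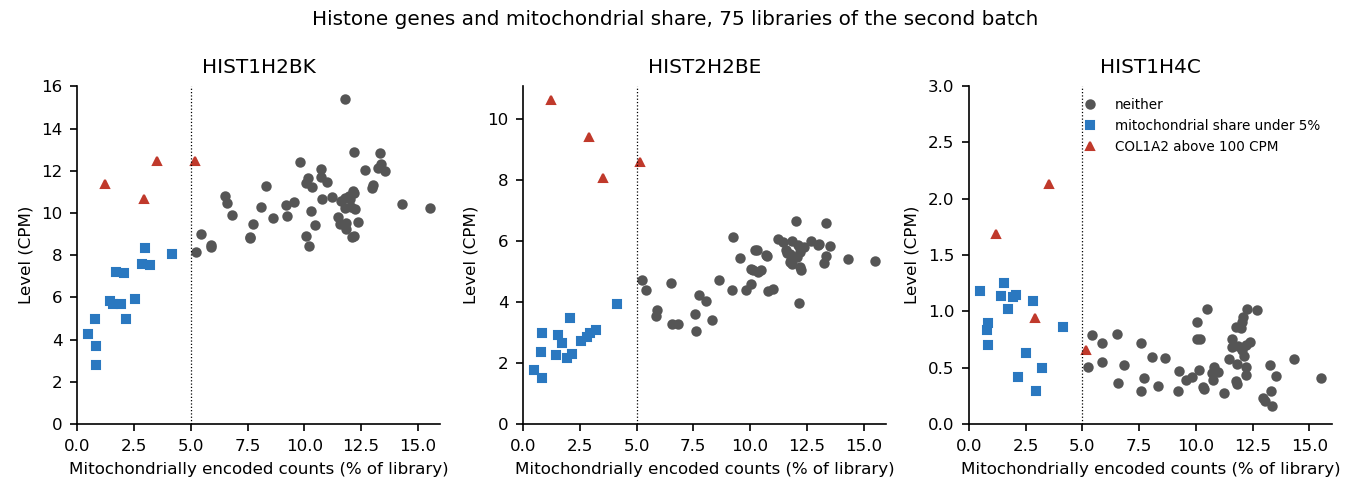
Level of HIST1H2BK, HIST2H2BE and HIST1H4C (vertical axis, CPM) against the share of counts in mitochondrially encoded genes (horizontal axis, percent) in the 75 libraries of the second batch; the dotted line is at 5%. The 15 squares under 5% have medians of 5.81, 2.74 and 0.90 CPM, against 10.4, 5.35 and 0.52 CPM for the circles, and the 4 triangles are the libraries with high COL1A2.

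The first question the design puts is what the extracts did. At 500 µg/mL the ethanol extract changed individual histone genes in both directions without a common shift. HIST1H4H and HIST1H1C rose, the H4 genes HIST2H4A and HIST2H4B fell, and most others did not pass the test. Of the 49 genes, 30 had enough counts to be tested in this batch. By edgeR's quasi-likelihood test with Benjamini-Hochberg adjustment, 3 were higher, 7 were lower and 20 did not pass. That is 33.3% of the 30, where 69.1% of all 16855 tested genes were called (34.7% higher and 34.4% lower). The median log2 change was 0.02 over the 30 and 0.00 over all genes.

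HIST1H4H (ENSG00000158406, chr6:26277609-26285638, minus strand) encodes histone H4. It was at 2.52, 2.06 and 2.11 CPM with vehicle and at 16.40, 15.94 and 14.97 CPM with the ethanol extract at 500 µg/mL. All 3 treated libraries lay far above all vehicle libraries, and the log2 change was 2.81 ± 0.12 (SE), with an edgeR adjusted p of 9.9e-16. At lower doses no such step was seen: it stood at 2.29, 2.14 and 2.60 CPM at 100 µg/mL and at 2.19, 2.07 and 2.22 CPM at 20 µg/mL. The water extract gave 2.30, 2.46 and 2.09 CPM at 500 µg/mL, within the vehicle values. In all 75 libraries of the second batch the gene stayed between 1.64 and 3.16 CPM, the 4 with high COL1A2 included.

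HIST1H1C (ENSG00000187837, chr6:26055787-26056428, minus strand) encodes the linker histone H1.2. Its level was 4.61, 6.32 and 4.37 CPM with vehicle and 10.30, 11.23 and 11.41 CPM with the ethanol extract at 500 µg/mL. The groups did not overlap, and the log2 change was 1.12 ± 0.11 (edgeR adjusted p = 5.5e-09). At 100 µg/mL it was at 6.15, 6.20 and 5.63 CPM, which overlapped vehicle. HIST1H2BN, for H2B, was the third gene that rose, from 1.14, 1.10 and 1.61 to 1.89, 2.14 and 1.86 CPM (log2 change 0.61 ± 0.20, edgeR adjusted p = 0.011). Its call was lost when the mitochondrial share entered the model and when vehicle replicate 1 was left out.

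The HIST2 cluster holds pairs of near-identical copies, between which the authors' counting divides shared reads. HIST2H4A (chr1:149832659-149839767) and HIST2H4B (chr1:149854045-149861210) were therefore also summed before testing. Together they stood at 9.70, 12.14 and 10.52 CPM with vehicle and at 3.19, 2.89 and 3.60 CPM with the ethanol extract at 500 µg/mL. The groups lay far apart (log2 change -1.73 ± 0.11, edgeR adjusted p = 1.3e-12). The values of the single copies, -1.18 ± 0.51 for HIST2H4A (edgeR adjusted p = 0.045) and -2.01 ± 0.36 for HIST2H4B (3.2e-05), are uncertain. HIST2H4A kept its call in 7 alternatives and lost it in 6. Among the 6 were DESeq2 and the fits without vehicle replicate 1 or 2 or ethanol replicate 2 or 3. The pair was at 10.27, 10.16 and 11.68 CPM at 100 µg/mL, within the vehicle values.

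The H2A copies HIST2H2AA3 and HIST2H2AA4 were not called singly, since their counts swung between the copies from library to library. Vehicle replicate 1 listed 0.00 and 3.86 CPM for them, and vehicle replicate 3 listed 1.56 and 2.21 CPM. Summed, they were at 3.86, 3.86 and 3.77 CPM with vehicle, at 4.78, 5.38 and 5.20 CPM with the ethanol extract at 100 µg/mL and at 5.68, 6.45 and 6.46 CPM at 500 µg/mL. Each dose lay wholly above vehicle, by 0.42 ± 0.10 (edgeR adjusted p = 0.0038) and 0.70 ± 0.09 (5.9e-07) on the log2 scale. At 20 µg/mL the sum was 4.25, 4.14 and 4.17 CPM, which did not pass (0.13 ± 0.10, edgeR adjusted p = 0.584). The same pair under the water extract at 500 µg/mL was at 4.29, 3.78 and 4.33 CPM and did not pass either.

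Among the H3 genes, HIST1H3H (chr6:27810064-27811300) fell with the ethanol extract at 500 µg/mL. It went from 2.09, 3.01 and 2.99 to 1.34, 1.50 and 1.66 CPM, without overlap (log2 change -0.82 ± 0.18, edgeR adjusted p = 0.00037). HIST1H3E, another H3 gene with a large total, was at 2.96, 3.06 and 2.94 CPM with vehicle and 3.46, 3.20 and 3.56 CPM with the extract, and did not pass (0.19 ± 0.11, edgeR adjusted p = 0.202). HIST1H2AG, for H2A, fell by 0.68 ± 0.16 (edgeR adjusted p = 0.00074), from 2.48 to 2.86 CPM with vehicle to 1.27 to 1.90 CPM. HIST2H2BE, for H2B, fell by 0.40 ± 0.13 on the log2 scale (edgeR adjusted p = 0.0074), a call lost with the mitochondrial share in the model (adjusted p = 0.14). The remaining calls, HIST2H2AC and HIST1H4I, were lower at under 1 CPM. That of HIST1H4I was kept in 6 alternatives and lost in 7, DESeq2 and 4 leave-outs among the 7. HIST1H2AC did not pass: it was at 12.85, 13.44 and 11.12 CPM with vehicle and 13.16, 13.37 and 13.54 CPM with the extract (0.10 ± 0.08, edgeR adjusted p = 0.254). HIST1H2BK also missed the threshold (-0.19 ± 0.10, edgeR adjusted p = 0.082).

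**Figure D4:**
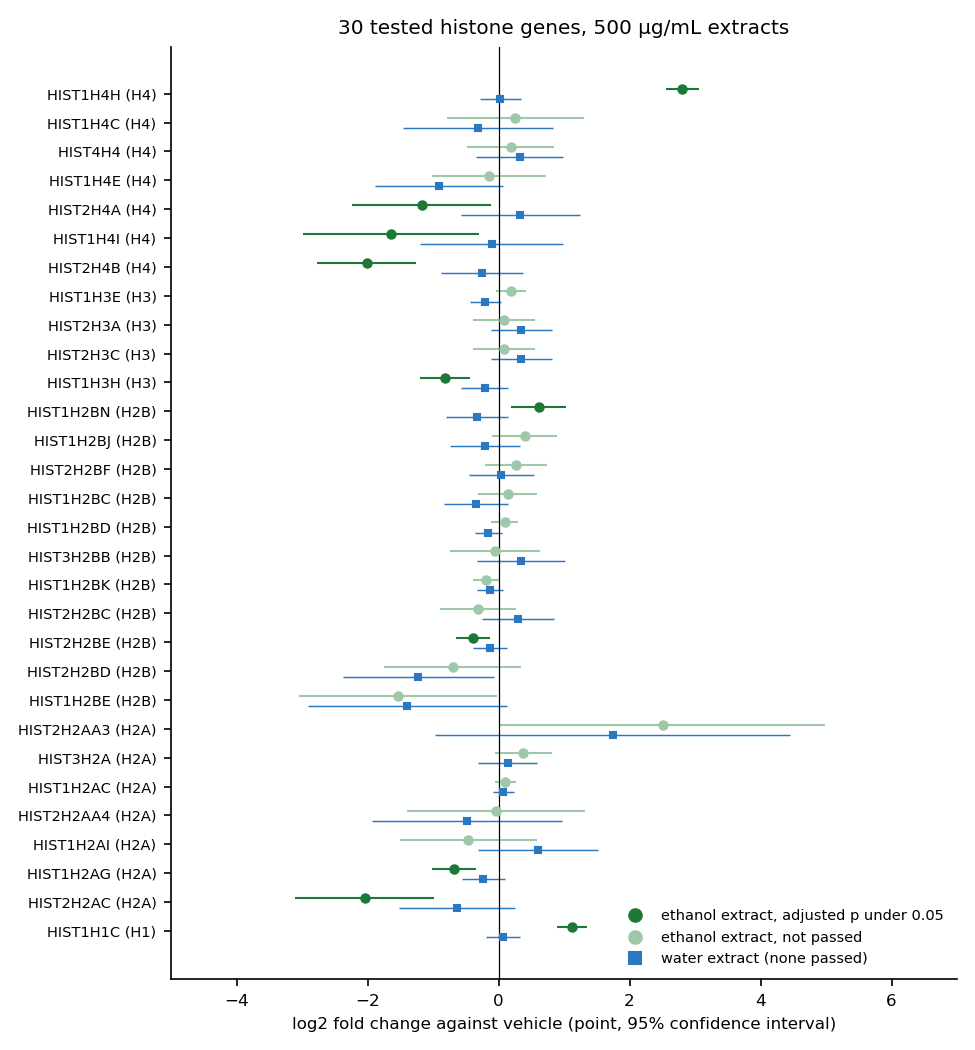
Log2 fold change against vehicle (horizontal axis; points with 95% confidence intervals) of the 30 tested histone genes under the ethanol extract (circles) and the water extract (squares) at 500 µg/mL, ordered by class. HIST1H4H lies at 2.81 and HIST1H1C at 1.12 under the ethanol extract, 7 genes are called lower, and none is called under the water extract.

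Summed by class and cluster, the balance shifted. The 4 H1 genes together rose from 4.46 to 6.67 CPM with vehicle to 10.4 to 11.6 CPM, nearly all of it HIST1H1C. The H4 genes went from 14.2 to 15.6 CPM to 20.25 to 20.97 CPM, the gain of HIST1H4H exceeding the loss of the HIST2H4A and HIST2H4B pair. The 33 HIST1 genes summed to 51.4 to 52.7 CPM with vehicle and 69.3 to 70.6 CPM with the extract. The 12 HIST2 genes summed to 25.9 to 27.7 CPM and 18.6 to 20.5 CPM. The sum of all 49 was 94.78, 92.12 and 94.55 CPM, above all vehicle libraries. These sums describe the libraries and carry no test.

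Untailed RNA and the mitochondrial share differed between the same libraries. RN7SL1 was at 1.58 to 3.45 CPM in the vehicle libraries and at 3.87 to 27.3 CPM in the 18 treated ones, without overlap. It was called higher with the ethanol extract at 500 µg/mL (log2 change 1.88, edgeR adjusted p = 0.018), the only call among 5 tested of 23 listed untailed RNAs. Mitochondrially encoded genes took 13.9 to 18.5% of the counts with vehicle and 11.6 to 15.3% in treated libraries. HIST1H4H, HIST1H1C and the HIST2H4A and HIST2H4B pair passed the test at the highest ethanol dose and at no other extract dose. Markers of cell types moved too. Of 8 airway epithelial and A549 markers 7 fell, EPCAM by 2.13 and KRT8 by 0.71 on the log2 scale, and 1 did not pass. Their summed level was 6644 to 7148 CPM with vehicle and 4736 to 4838 CPM with the ethanol extract at 500 µg/mL. Of 5 tested fibroblast markers, 2 fell and 3 did not pass. Of 10 blood and endothelial markers 2 had enough counts, and both rose, CLDN5 by 2.30 and CD14 by 0.74. The summed level of the 10 was 2.96 to 3.12 CPM with vehicle and 5.36 to 6.46 CPM with the extract. The part of these shifts in the histone changes was not tested.

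Genes that make, process and place histones were also followed at this dose, at which 69.1% of all tested genes were called, so the counts of these lists stand beside a general change. Of 25 listed factors of histone gene transcription and mRNA processing, 6 rose, 16 fell and 3 did not pass. SLBP, which binds the stem-loop, fell from 46.6, 50.2 and 47.9 to 38.20, 40.07 and 37.95 CPM (log2 change -0.31 ± 0.04, edgeR adjusted p = 9.0e-07). NPAT, the cyclin E-CDK2 target that switches on histone genes, was at 0.05 ± 0.06 and CASP8AP2 (FLASH) at 0.11 ± 0.05 on the log2 scale, neither past the threshold. LSM11, a U7 particle protein, rose by 1.09 ± 0.07, HINFP, which activates H4 genes, by 0.57 ± 0.08, and POU2F1 by 0.66 ± 0.06. The cleavage factor genes CPSF2 (-1.36 ± 0.04) and CSTF2 (-1.14 ± 0.06) fell, as did SRRT, ARS2 of the cap-binding complex (-1.12 ± 0.06).

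Of 17 genes for histone chaperones and the acetylation of new histones, 3 rose, 12 fell and 2 did not pass. ATRX (-1.01 ± 0.05), the importin IPO4 (-0.93 ± 0.05) and the acetyltransferase HAT1 (-0.81 ± 0.05) were among those that fell, and UBN1 rose by 0.43 ± 0.03. Of 16 replication-independent histones, whose mRNAs are mostly polyadenylated, 11 were tested: 1 rose, 8 fell and 2 did not pass. H2AFX, the variant phosphorylated at DNA breaks, went from 102, 114 and 112 to 35.3, 33.8 and 36.1 CPM (log2 change -1.64 ± 0.06). H3F3B fell by 0.82 ± 0.06, H3F3A by 0.61 ± 0.07 and H1FX by 0.77 ± 0.05, whereas H2AFV rose by 0.20 ± 0.06. H1F0, another linker histone, did not pass (-0.07 ± 0.05). Of 40 DNA replication and G1/S genes, 8 rose, 27 fell and 5 did not pass. CCNE2, for cyclin E2, rose by 0.80, and PCNA, the sliding clamp, fell by 0.47. Of 16 genes of G2 and mitosis, 15 fell and 1 did not pass.

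**Figure D5:**
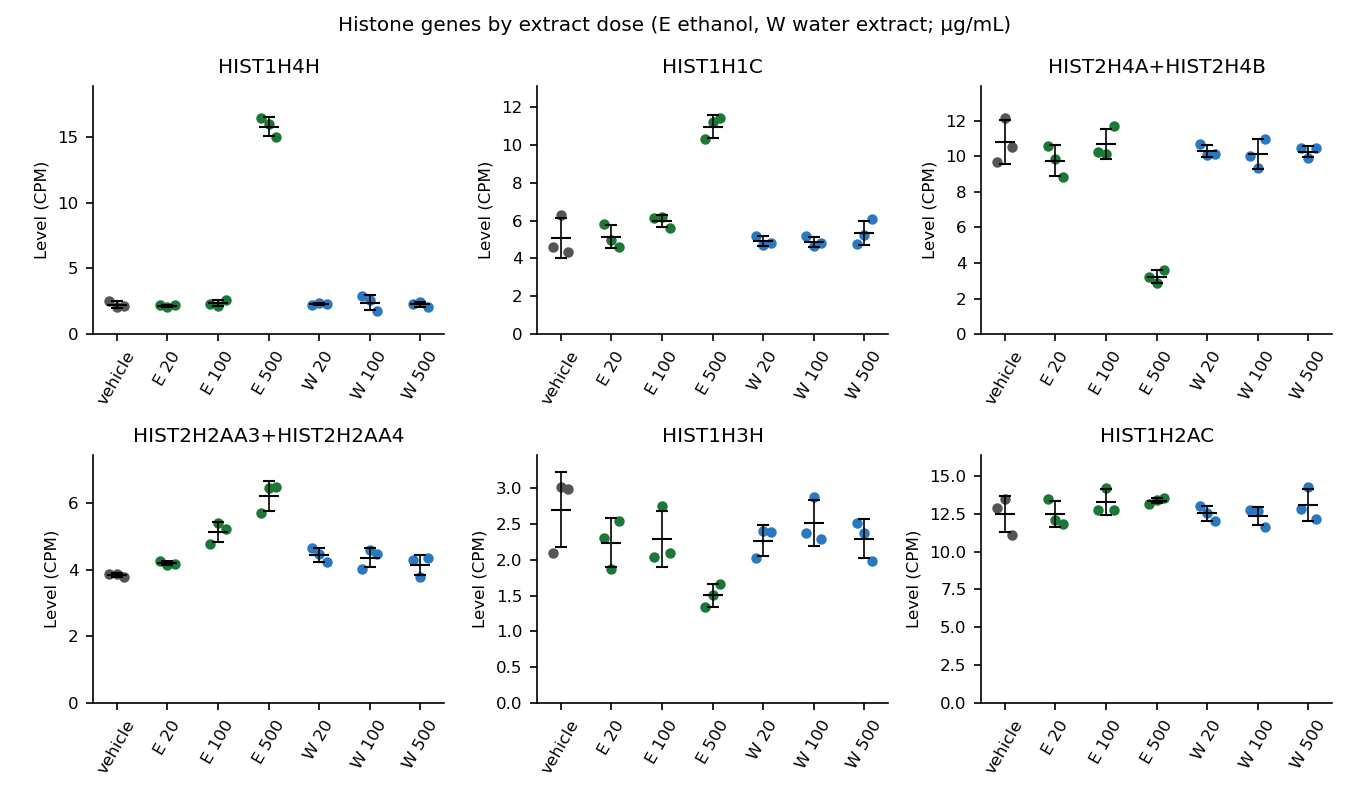
Level (vertical axis, CPM) of 4 single histone genes and 2 summed copy pairs in the 3 libraries of each group of the first batch (horizontal axis), with the mean and SD. HIST1H4H reaches 14.97 to 16.40 CPM and HIST1H1C 10.3 to 11.4 CPM only with the ethanol extract at 500 µg/mL, where HIST2H4A with HIST2H4B is at 2.89 to 3.60 CPM, while HIST2H2AA3 with HIST2H2AA4 is above vehicle already at 100 µg/mL and HIST1H2AC overlaps vehicle.

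At 100 µg/mL of the ethanol extract, 2 of the 30 genes were called (6.67%, against 17.5% of all genes). They were the H3 copies HIST2H3A and HIST2H3C, whose deposited values are identical. Each was at 0.87, 0.80 and 0.74 CPM with vehicle and 1.58, 1.21 and 1.09 CPM with the extract, above all vehicle libraries (0.68 ± 0.21, edgeR adjusted p = 0.033). Summed and counted once, the pair gave 0.68 ± 0.18 (edgeR adjusted p = 0.00995). The calls of the single copies were lost in 5 of 6 leave-outs, and DESeq2 called 0. Untailed RNAs were higher in the same comparison: RN7SL1 (log2 change 2.32, edgeR adjusted p = 0.015), RPPH1 (1.77, 0.032) and RN7SK (1.93, 0.035) passed, 3 of 5 tested. With untailed RNA as a covariate HIST2H3A was at 0.63 and did not pass (edgeR adjusted p = 0.15), nor did it with the mitochondrial share (0.52, edgeR adjusted p = 0.295). At 500 µg/mL the same pair did not pass (0.08 ± 0.19). Of the processing factors, 1 rose, 4 fell and 20 did not pass at 100 µg/mL, and of the replication-independent histones 2 rose, 1 fell and 8 did not pass.

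No histone gene passed the test in the other vehicle comparisons of the first batch. With the ethanol extract at 20 µg/mL edgeR called 0 of 30 (7.45% of all genes), and 0 had an unadjusted p under 0.05. For the water extract edgeR called 0 at 500 µg/mL (21.1% of all genes), 0 at 100 µg/mL (12.5%) and 0 at 20 µg/mL (9.5%). The numbers at an unadjusted p under 0.05 were 1, 2 and 3, and DESeq2 called 0 in each. With the water extract at 500 µg/mL HIST1H1C was at 4.77, 5.22 and 6.06 CPM and the HIST2H4A and HIST2H4B pair at 10.45, 9.90 and 10.45 CPM, both overlapping vehicle. Of the 16 mitotic genes, 7 fell there and 9 did not pass.

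Set directly against each other at 500 µg/mL, the extracts differed in 13 of the 30 genes (43.3%, against 66.1% of all genes). By edgeR, 6 were higher with the ethanol extract (32.7% of all genes) and 7 lower (33.3%), and DESeq2 called 6. HIST1H4H was higher by 2.78 ± 0.12 (edgeR adjusted p = 1.3e-15), HIST1H1C by 1.04 ± 0.11 (1.7e-08) and HIST1H2BN by 0.93 ± 0.21 (0.00046) on the log2 scale. HIST1H3E, HIST1H2BJ and HIST1H2BD were higher by 0.39, 0.60 and 0.25. The HIST2H4A and HIST2H4B pair was lower by 1.67 ± 0.11 and HIST1H3H by 0.61 ± 0.19, without overlap between the groups. HIST1H2AG, HIST2H2AC, HIST1H4I and HIST1H2AI were also called lower, and the libraries of HIST1H2AI overlapped. HIST1H2BJ and HIST1H2BD lost theirs in 6 of 14 alternatives each, HIST1H2AG in 5 of 14, HIST1H2AI in 7 of 13, HIST1H4I in 5 of 13 and HIST2H2AC in 4 of 13, DESeq2 among them in each case. At 100 µg/mL edgeR called 0 of 30 (1.77% of all genes) and 3 had an unadjusted p under 0.05. At 20 µg/mL it called 0 (0.0%) and 2 did, with 0 by DESeq2 at both doses.

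The single ingredients were tested on 38 of the 49 genes. Of the 24 comparisons with vehicle, edgeR called no single histone gene in 21. All calls of single genes came from catechin at 2 and 0.4 µM and gallic acid at 10 µM. Among these groups only catechin at 2 µM holds a library with high COL1A2, and each holds libraries with a mitochondrial share under 5%. Values without the doubted libraries are therefore given beside the calls. For catechin at 2 µM edgeR called 4 of 38 higher (10.5%, against 8.05% of all genes, 4.5% higher). They were HIST1H1E, HIST1H2BL, HIST3H2A and HIST1H3H. HIST3H2A was at 2.31, 46.45 and 3.10 CPM against 2.77, 2.14 and 2.10 CPM with vehicle, so that a single library carried its change. HIST1H1E was at 0.42, 2.48 and 0.33 CPM against 0.21, 0.04 and 0.24 CPM, and HIST1H2BL at 0.14, 3.47 and 0.33 CPM against 0.04, 0.24 and 0.12 CPM, again highest in replicate 2. Without that replicate, the one with high COL1A2, the log2 changes of HIST3H2A, HIST1H1E and HIST1H2BL were 0.21, 1.18 and 0.80, and none passed (edgeR adjusted p of 0.88, 0.32 and 0.63). Their calls were lost in 10 of 16, 8 of 13 and 9 of 14 alternatives.

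HIST1H3H, which fell with the ethanol extract, was at 1.98, 2.82 and 2.85 CPM with catechin at 2 µM and at 1.51, 1.46 and 1.54 CPM with vehicle. The groups did not overlap (0.76 ± 0.20, edgeR adjusted p = 0.031), though the call was lost when any 1 vehicle library was left out. The 56 libraries of neither kind, vehicle among them, held HIST1H3H at 1.11 to 2.85 CPM, with a median of 2.04. The catechin values lay within that range, and all vehicle values lay below that median. Without both kinds of doubted libraries 1 library of catechin at 2 µM was left, which was assumed to vary like the other groups. HIST1H3H was then called at 0.91, beside HIST1H1C at 0.87 and HIST2H2BF at -1.09 (32.5% of all genes called). At 0.4 µM HIST1H3H was the 1 histone gene called of 38, where 4.67% of all genes were. It was at 1.99, 2.84 and 2.37 CPM there, above all vehicle libraries (0.68 ± 0.20, edgeR adjusted p = 0.035). Leaving out any 1 vehicle library, or replicate 2 or 3 of this group, ended the call. Without both kinds 1 library was left here too, with its spread taken from the other groups, and HIST1H3H was then called at 0.91, among 3 histone genes (24% of all genes). At 10 µM it was at 2.21, 1.82 and 2.04 CPM, and edgeR called 0 histone genes (0.0655% of all genes), with 16 at an unadjusted p under 0.05 and 1 by DESeq2.

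Gallic acid at 10 µM gave 1 call, HIST1H3E (13.4% of all genes were called). It was at 3.42, 3.85 and 3.16 CPM against 2.22, 2.51 and 2.67 CPM with vehicle, without overlap (0.50 ± 0.17, edgeR adjusted p = 0.041). The call was lost when any 1 library of either group was left out. Replicates 1 and 3 of that group had a mitochondrial share under 5%. Without these and the other doubted libraries 1 library was left, with its spread taken from the other groups. The change was then 0.64 with an edgeR adjusted p of 0.058 (1.8% of all genes called), and HIST1H2AI was called in its place. The summed HIST2H4A and HIST2H4B pair also passed at 10 µM. It was at 14.12, 12.04 and 13.41 CPM against 10.73, 10.07 and 9.50 CPM with vehicle, without overlap (0.38 ± 0.13, edgeR adjusted p = 0.044). Without the doubted libraries, with 1 library left, it was at 0.25 and did not pass (edgeR adjusted p = 0.34). At 2 µM and 0.4 µM edgeR called 0 histone genes (0.6% and 0.0709% of all genes), with 17 and 12 at an unadjusted p under 0.05 and 4 and 0 by DESeq2. Each of these groups held a library with high COL1A2.

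For the other 6 ingredients, edgeR called 0 of 38 single genes in all 18 comparisons. The share was 0.0382% at each dose of albiflorin. It was 0.0273, 0.0218 and 0.0327% for benzoic acid at 10, 2 and 0.4 µM, 2.42, 0.0546 and 3.05% for hederagenin and 4.44, 0.327 and 0.18% for oleanolic acid. For paeoniflorin it was 0.191, 0.229 and 0.136%, and for paeonol 0.126, 0.0873 and 0.278%. Between 0 and 4 genes had an unadjusted p under 0.05, DESeq2 called 0, and the medians over the genes lay between -0.03 and 0.22. The edgeR tests used the spread of the whole second batch, doubted libraries included (common coefficient of variation 0.212, against 0.044 in the first batch). The SE of the summed HIST2H3A and HIST2H3C pair, whose copies were high in the libraries with high COL1A2, was 0.71 for albiflorin at 10 µM. It was 0.18 for the ethanol extract at 100 µg/mL. The SE differed less for the HIST2H2AA3 and HIST2H2AA4 pair (0.174 and 0.095) and the HIST2H4A and HIST2H4B pair (0.132 and 0.089). Without the doubted libraries edgeR called 15.7% of all genes for hederagenin at 10 µM. The absence of calls therefore does not show that the histone genes did not change. HIST1H2AC under oleanolic acid at 10 µM was at 14.67, 15.77 and 15.20 CPM against 11.81, 11.69 and 10.07 CPM with vehicle. These values do not overlap, but the change of HIST1H2AC did not pass over all libraries (0.44 ± 0.17, edgeR adjusted p = 0.133). Without replicate 3, whose mitochondrial share was 2.97%, and the other doubted libraries, it was called together with HIST3H2A (0.53), HIST1H2BN (0.85), HIST1H3E (0.41) and HIST1H4C (-1.27), where 21.5% of all genes were called. The summed HIST2H4A and HIST2H4B pair, which fell with the ethanol extract at 500 µg/mL, was higher with oleanolic acid at 10 µM. It was at 14.56, 15.80 and 12.13 CPM against 10.73, 10.07 and 9.50 CPM with vehicle, without overlap (0.49 ± 0.13, edgeR adjusted p = 0.018). Without the doubted libraries it passed at 0.58 (edgeR adjusted p = 1.2e-05).

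Structurally related ingredients were compared at matched doses in 9 comparisons. These were hederagenin with oleanolic acid (both triterpenoid acids of the oleanane type, hederagenin carrying an extra hydroxyl group), gallic with benzoic acid (which lacks the hydroxyl groups of gallic acid), and paeoniflorin with albiflorin (isomeric monoterpene glycosides). No single histone gene was called by edgeR in any of them. Of all genes, 0.0109% were called for hederagenin against oleanolic acid at 10 µM, 8.67% for gallic against benzoic acid at 10 µM, and 0.0% in the other 7. Between 0 and 14 genes had an unadjusted p under 0.05 and DESeq2 called 1. The summed HIST2H4A and HIST2H4B pair was higher with gallic than benzoic acid at 10 µM (0.40 ± 0.13, edgeR adjusted p = 0.049), a call lost without the doubted libraries (0.26, edgeR adjusted p = 0.36). HIST1H4H had the narrowest intervals at 10 µM. It differed between hederagenin and oleanolic acid by 0.01 (95% interval -0.28 to 0.31), between paeoniflorin and albiflorin by 0.24 (-0.05 to 0.54) and between gallic and benzoic acid by 0.33 (0.03 to 0.63). HIST1H2AC differed between hederagenin and oleanolic acid at 10 µM by -0.41 (95% interval -0.75 to -0.08). Between paeoniflorin and albiflorin at 10 µM it differed by 0.07 (-0.26 to 0.41), and between gallic and benzoic acid by -0.13 (-0.47 to 0.21). For HIST1H1C the same differences were -0.15 (-0.59 to 0.29), 0.24 (-0.20 to 0.67) and 0.48 (0.04 to 0.92). None of these single-gene differences passed adjustment over all genes. Before that adjustment, the intervals of HIST1H4H and HIST1H1C for gallic against benzoic acid did not hold 0. Nor did that of HIST1H2AC for hederagenin against oleanolic acid, while the other intervals given held 0. Without both kinds of doubted libraries HIST1H2AC was called lower with hederagenin than oleanolic acid at 10 µM (-0.44, 1.29% of all genes called). HIST1H4C was called lower with paeoniflorin than albiflorin at 10 µM (-1.72, 0.234% of all genes called).

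HIST1H4C, an H4 gene, was followed by ingredient after its values were seen. With vehicle it was at 0.75, 0.85 and 0.61 CPM. With oleanolic acid it was at 0.29, 0.42 and 0.47 CPM at 0.4 µM, 0.48, 0.21 and 0.39 CPM at 2 µM and 0.28, 0.33 and 0.29 CPM at 10 µM, all 9 below vehicle. With gallic acid at 10 µM it was at 1.14, 0.41 and 1.14 CPM, on both sides of vehicle. None of these passed edgeR's test over all libraries. Without both kinds of doubted libraries edgeR called it lower with oleanolic acid at 10 µM (-1.27) and 2 µM (-1.05, 7.78% of all genes called). It was then also called lower with hederagenin (-1.05, 15.7% of all genes) and paeoniflorin (-1.50, 5.71%) at 10 µM. These comparisons share their vehicle libraries. All of the vehicle values lay above the median of the 56 libraries of neither kind, 0.52 CPM (range 0.16 to 1.02 CPM). At under 1 CPM HIST1H4C also rests on few counts.

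Ingredients whose label codes start with the same digit were also compared at matched doses, since the code may stand for a plate or a run, which the labels do not say. These 12 comparisons were albiflorin with benzoic acid, gallic acid with catechin, hederagenin with paeonol and oleanolic acid with paeoniflorin. EdgeR and DESeq2 called 0 histone genes in each, and 0 to 14 had an unadjusted p under 0.05. Of all genes, edgeR called 0.677% for gallic acid against catechin, 1.03% for hederagenin against paeonol and 2.58% for oleanolic acid against paeoniflorin at 10 µM. It called 0.0819% for the last pair at 2 µM and 0.0% in the other 8.

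The vehicle libraries of the 2 batches show how far these genes moved with no agent. Between them 6 of 26 tested genes were called by edgeR (23.1%, against 37% of all genes), 3 higher and 3 lower in the second batch, and DESeq2 called 3. HIST1H3H was at 2.09, 3.01 and 2.99 CPM in the first and 1.51, 1.46 and 1.54 CPM in the second batch, without overlap (-0.88 ± 0.19, edgeR adjusted p = 0.0039). Against the vehicle of its own batch the same gene changed by -0.82 with the ethanol extract and by 0.76 with catechin at 2 µM. HIST2H4A was higher by 1.12 and HIST2H4B lower by 1.22, but their sum, 9.70 to 12.14 and 9.50 to 10.73 CPM, did not pass (-0.13 ± 0.10, edgeR adjusted p = 0.298). HIST1H4C was higher by 1.31 ± 0.35 and HIST4H4 by 0.96 ± 0.31, both near or under 1 CPM, and HIST2H2BE was lower by 0.45 ± 0.14. Batch and vehicle preparation cannot be told apart here.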

How the data were processed

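RNA sequencing of A549 cells gave 96 libraries made from total RNA with a directional mRNA kit, per the labels' protocols. The deposited values are expected counts per gene made by the authors. FastQC, Trim Galore, STAR and RSEM 1.3.3 with build hg38 (GRCh38) are named in the submitters' processing notes. Annotation release, strand setting and poly(A) selection are not stated there, so near-identical copies are uncertain. Counts were rounded. The batches were fitted separately, all groups of a batch together, without covariates, in edgeR 4.0.16 (R 4.3.3, limma 3.58.1): TMM factors, filterByExpr, glmQLFTest, Benjamini-Hochberg adjustment over all tested genes, threshold 0.05. The tests covered 16855 genes in the first batch (30 histone genes), 18324 in the second (38) and 15805 between vehicles (26). Changes are log2 ± SE. The calls were repeated with DESeq2 1.42.0, other scalings and filters, covariates, summed copies and libraries left out. The test was checked on simulated counts. Copy sums (also without the doubted libraries), the mitochondrial covariate, the removal of both kinds of doubted libraries and leave-outs for catechin at 2 and 0.4 µM were chosen after seeing the data. Genes named are the 3 with the largest totals per class and, per comparison, up to 3 non-overlapping rises and falls with a mean of at least 1 CPM; others named, such as HIST1H4C, were chosen after their values were seen. Members and lists were chosen with earlier results of these data known. In bulk samples, fewer cells making a transcript and less transcript per cell cannot be told apart. Replicate numbers did not pair the samples, so no block was used.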

Additional observations from a re-analysis of the deposited data

How the results depend on the processing

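Of 494 values of 37 single-gene results under the alternatives, 364 kept direction and side of the threshold, 129 kept direction and lost the call, and 1 reversed: HIST3H2A with catechin at 2 µM, at -0.19 with untailed RNA as covariate. Cause was not tested for any shift below. Counts of histone genes called, which do not say which genes, moved by over 1.5 times as follows. With DESeq2 they were 0 for ethanol extract at 100 µg/mL, 6 for ethanol against water at 500 µg/mL, 1 for catechin at 10 µM, 4 for gallic acid at 2 µM, 1 for gallic against benzoic acid at 10 µM and 3 between the vehicles. Without a filter on low counts they were 3, 2, 3 and 3 for ethanol at 20 and water at 500, 100 and 20 µg/mL, 1 for ethanol against water at 100 µg/mL, and 0 for catechin at 2 and 0.4 µM and gallic acid at 10 µM; with ethanol at 500 µg/mL 15 were called. Catechin at 2 µM gave 2 among genes with a total of at least 1000. With untailed RNA as covariate, ethanol at 100 µg/mL gave 0, catechin at 2 µM 0, gallic acid at 10 µM 2 and oleanolic acid at 10 µM 1. With the mitochondrial share as covariate, they gave 1, 1, 2 and 4, hederagenin at 10 µM 2, paeoniflorin at 10 µM 1, gallic against benzoic acid 1, gallic acid against catechin 3 and oleanolic acid against paeoniflorin 1, all at 10 µM. Fitting only the 2 groups gave 1 for ethanol at 100 µg/mL, 1 for albiflorin at 2 µM, 0 and 6 for catechin at 2 and 0.4 µM, 0 for gallic acid at 10 µM, 2 for hederagenin at 10 µM, and 2 and 2 for oleanolic acid at 10 and 2 µM. Summing copy pairs gave 2 for gallic acid, 1 for oleanolic acid and 1 for gallic against benzoic acid at 10 µM.

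Without the libraries of high COL1A2, gallic against benzoic acid at 10 µM gave 2. Without those of low mitochondrial share the counts were 2 and 3 for catechin at 2 and 0.4 µM, 0, 1 and 12 for gallic acid at 10, 2 and 0.4 µM, 1 and 1 for hederagenin at 10 and 0.4 µM, 3 and 1 for oleanolic acid at 10 and 2 µM and 1 for paeoniflorin at 10 µM. They were 8 for gallic against benzoic acid at 0.4 µM, and 1 each for paeoniflorin against albiflorin and hederagenin against paeonol at 10 µM. Without both kinds they were 3 for catechin at 0.4 µM, 2 for gallic acid at 2 µM, 3 and 1 for hederagenin at 10 and 0.4 µM, 5 and 1 for oleanolic acid at 10 and 2 µM, 1 for paeoniflorin at 10 µM, and 1 each for hederagenin against oleanolic acid, paeoniflorin against albiflorin, hederagenin against paeonol and oleanolic acid against paeoniflorin at 10 µM. Leaving out 1 library at a time gave 7 to 10 for ethanol at 500 µg/mL, 0 to 2 at 100 and 0 to 1 at 20 µg/mL, 0 to 1 for water at 500 and at 20 µg/mL, 8 to 13 for ethanol against water at 500 µg/mL, 4 to 7 between vehicles, 0 to 14 and 0 to 1 for catechin at 2 and 0.4 µM and 0 to 3 for gallic acid at 10 µM.

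Same-numbered libraries did not deviate together: the correlations of their deviations were -0.05 to 0.14 in the first batch and -0.40 to 0.57 in the second, and exceeded 0.1 in every pair in 0 of 9 and 1 of 45 comparisons. With a replicate block, 12 histone genes were called for ethanol at 500 µg/mL. Depth limits most of these genes: 42 of 49 averaged under 100 counts per library, so small changes were not detectable at this depth.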
